A study of Mus musculus with 9 samples.

Results

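The T-cell antigen receptor signals through the CD3 chains, encoded by Cd3d, Cd3e, Cd3g and Cd247, and the coreceptors encoded by Cd4, Cd8a and Cd8b1 divide mature T-cells into helper and cytotoxic lineages. These 7 genes were taken by name, and earlier results of these data were known when they were chosen. Of the 785 probes of nCounter's Mouse Immune Exhaustion panel (an assay that counts colour-barcoded RNA molecules instead of reads), 6 matched a member by its transcript. They were Cd3d (NM_013487.2), Cd3e (NM_007648.4), Cd3g (NM_009850.2), Cd4 (NM_013488.2), Cd8a (NM_001081110.2) and Cd8b1 (NM_009858.2). No probe was matched to Cd247, which is not analysed here.

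The RNA came from T-cells that a Pan-T-cell isolation kit recovered from bone marrow of 9 female, wild-type C57BL/6 mice, aged 6 to 8 weeks at the start. The 3 groups, of 3 mice each, were mice without leukemia, mice with leukemia given vehicle (called vehicle treated here) and mice with leukemia given rIL-12, and all were harvested at day 7. Leukemia came from 200000 BCR-ABL1+ Arf-/- B-ALL cells (a B-cell acute lymphoblastic leukemia line) given by tail vein without irradiation, and recombinant IL-12 was given daily at 1 µg from day 3. The deposited labels list the vehicle group as untreated, while the methods call it vehicle treated. The model rests on 1 leukemia line, and mice served as the replicates. The comparisons ask how leukemia, and rIL-12 in mice with leukemia, relate to RNA levels in bone marrow T-cells.

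The delta, gamma and epsilon chains pair as CD3δε and CD3γε on the surface of every conventional αβ T-cell, and their tails carry the motifs that Lck phosphorylates and Zap70 binds. CD4 recognises MHC class II and CD8 recognises MHC class I, and both bring Lck to the receptor. CD8 on conventional cytotoxic T-cells is a heterodimer of the α chain (Cd8a) and the β chain (Cd8b1), whereas α homodimers occur on other lymphocytes and on some dendritic cells. CD4 is also found on some dendritic cells and monocytes.

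Cd3g, Cd3d and Cd3e are consecutive protein-coding genes on chromosome 9, Cd8b1 and Cd8a are neighbours on chromosome 6, and Cd4 lies beside Lag3, also on chromosome 6. Since the 3 CD3 genes lie together and their levels moved together in the mice described below, their upstream sequences are shown, from bases 250 to 53 before the annotated start (RefSeq, GRCm38.p6), each read 5′ to 3′ on the strand of the gene. Capitals mark CACCTG, the reverse complement of the E-box CAGGTG, a motif that E proteins of lymphocytes are known to bind.
Cd3g, chr9:44980484-44980681, minus strand: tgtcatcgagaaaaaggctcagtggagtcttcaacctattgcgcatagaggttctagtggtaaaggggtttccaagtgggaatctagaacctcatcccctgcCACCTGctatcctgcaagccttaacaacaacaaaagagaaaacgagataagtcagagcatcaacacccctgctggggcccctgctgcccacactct
Cd3d, chr9:44981536-44981733, plus strand: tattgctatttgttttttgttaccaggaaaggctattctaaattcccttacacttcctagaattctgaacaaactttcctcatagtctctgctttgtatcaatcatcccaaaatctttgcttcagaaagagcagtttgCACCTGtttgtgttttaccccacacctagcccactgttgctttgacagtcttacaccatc
Cd3e, chr9:45009664-45009861, minus strand: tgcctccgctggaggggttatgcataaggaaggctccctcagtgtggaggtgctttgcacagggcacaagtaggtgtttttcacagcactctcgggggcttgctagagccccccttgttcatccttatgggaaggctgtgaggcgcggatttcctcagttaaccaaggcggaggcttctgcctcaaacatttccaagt
CAGGTG, counted on both strands, was found 1 time in the Cd3d window, 1 time in the Cd3g window and 0 times in the Cd3e window, and in 14.3% of all 32851 RefSeq windows of this length. GGAA, the core of ETS family motifs, was counted 4, 2 and 4 times in the windows of Cd3d, Cd3g and Cd3e on both strands, but 89.0% of all windows held it at least once. The copies of these motifs did not overlap each other. The TATA box motif TATAAA was found 0 times in each of the 3 windows and in 9.08% of all windows. Such matches describe letters only. The windows had 38.9% (Cd3d), 50.0% (Cd3g) and 55.1% (Cd3e) G and C.

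Total counts per mouse were between 257613 (vehicle treated mouse 3) and 711748 (rIL-12 treated mouse 2), and the next lowest was 467447 (leukemia-free mouse 1). The probe for a viral (LCMV) transcript, used as a guide to background because no infection is part of the design, gave 53 to 114 counts. It is not the floor of the panel, as the lowest count of any probe was 5. A count near the viral probe can therefore still hold signal. The number of mice, 3 per group, limits the precision. Levels are given as normalized counts, which are counts scaled by TMM (trimmed mean of M values) to a common library size. A gene was called differentially expressed where the change was 1.5-fold or more and the adjusted p, taken over the 785 probes, was below 0.05, with edgeR's quasi-likelihood test and Benjamini-Hochberg adjustment, which supplies every adjusted p for a gene below. As 3 mice against 3 allow no exact two-sided permutation p under 0.1, that value marks groups that do not overlap. In RNA from a cell isolate, fewer cells of a type and less RNA per cell cannot be told apart.

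The CD3 chains were highest in mice without leukemia and lowest in rIL-12 treated mice with leukemia. Cd3d had 1829, 1063 and 1502 normalized counts in the 3 mice without leukemia (1465 ± 384, SD, n = 3), 965, 892 and 544 with vehicle (800.4 ± 225) and 303, 460 and 583 with rIL-12 (449 ± 140). Each mouse with leukemia was below each mouse without it, while the highest rIL-12 treated mouse lay above the lowest vehicle treated mouse. Cd3e, the chain shared by both CD3 dimers, had 852, 456 and 674 normalized counts without leukemia (661 ± 198, SD, n = 3), 426, 291 and 306 with vehicle (341 ± 73.8) and 143, 207 and 322 with rIL-12 (224 ± 90.9). Its order was that of Cd3d, and the rIL-12 group again overlapped the vehicle group. Cd3g had 1284, 698 and 1132 without leukemia (1038 ± 304, SD, n = 3), 591, 649 and 560 with vehicle (600.1 ± 45.1) and 316, 459 and 509 with rIL-12 (428 ± 100.1). For Cd3g none of the 3 groups overlapped. In all 9 mice the 3 chains were counted above the highest viral count.

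**Figure D1:**
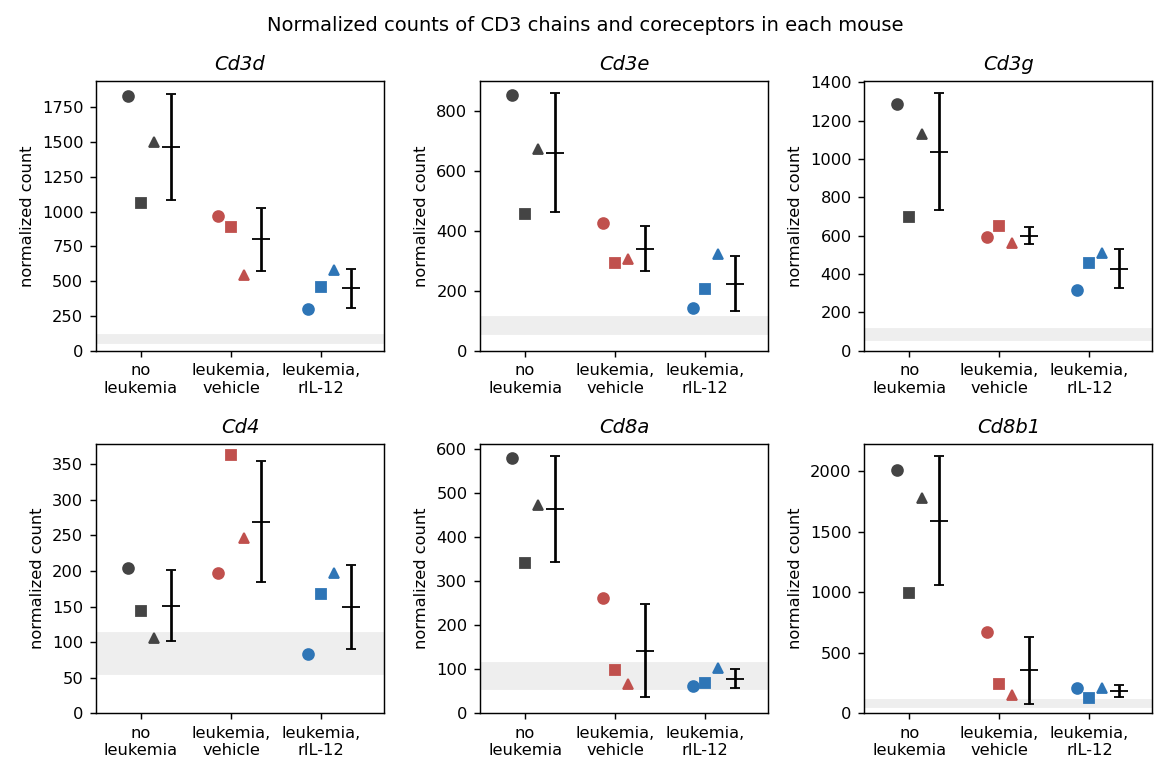
Normalized counts (y axis, linear, from 0) of the 6 genes in each mouse, by group (x axis), with circles, squares and triangles for mice 1, 2 and 3 of a group, horizontal bars for the mean and error bars for the SD. The grey band spans the normalized counts of the viral probe, 55.3 to 113, and Cd8a lies within it in each rIL-12 treated mouse, whereas the 3 CD3 chains lie above it in every mouse.

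In vehicle treated mice with leukemia, the CD3 chains were lower than without leukemia by an amount that did not pass the threshold. The log2 fold change was −0.87 (standard error 0.27) for Cd3d, −0.95 (0.29) for Cd3e and −0.79 (0.23) for Cd3g, and edgeR's quasi-likelihood test gave adjusted p of 0.121, 0.112 and 0.108. Including Cd8a and Cd8b1, 5 of the 6 measured members had vehicle treated mice all below mice without leukemia, against 9.81% of all probes. DESeq2 and a model of only these 6 mice placed all 3 chains past the threshold.

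In rIL-12 treated mice with leukemia, all 3 CD3 chains fell relative to mice without leukemia. The log2 fold change was −1.71 (standard error 0.28) for Cd3d, −1.56 (0.29) for Cd3e and −1.28 (0.23) for Cd3g, with adjusted p of 0.00103, 0.00293 and 0.00215 by edgeR's quasi-likelihood test. With the CD8 chains, 5 of 6 members were lower past the threshold in this comparison, against 8.66% of all 785 probes (17.6% in either direction), and 5 of 6 had groups that did not overlap, rIL-12 lower, against 16.7%. These 5 calls held when any single mouse was left out, and only the methods' t-test with adjusted p lost them. That test was run here on log2 TMM-scaled counts, not on the study's nSolver values, and called 0 of 785 probes. By it 109 probes, with these 5 members, changed 1.5-fold or more with an unadjusted p under 0.05.

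Between the 2 groups with leukemia, the CD3 chains did not pass the threshold. The log2 fold change of rIL-12 against vehicle was −0.84 (standard error 0.28, adjusted p = 0.0565 by edgeR) for Cd3d, −0.61 (0.29, adjusted p = 0.166) for Cd3e and −0.49 (0.23, adjusted p = 0.159) for Cd3g. Of the 6 members, 0 were called in this comparison, against 13.8% of all probes in either direction, and 3 had an unadjusted p under 0.05 with at least a 1.5-fold change. DESeq2 called 1, Cd3d. Scaling by 7 housekeeping genes, which moved the all-probe median from −0.084 to −0.56 log2, placed all 6 members past the threshold, and leaving out rIL-12 treated mouse 3 placed Cd3d, Cd3e and Cd4 past it.

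The CD8 chains were lower in both leukemia groups than without leukemia, and by more than the CD3 chains in the fitted values. Cd8a had 580, 340 and 472 normalized counts without leukemia (464 ± 120, SD, n = 3), 262, 98.0 and 67.3 with vehicle (142 ± 105) and 63.0, 68.9 and 104 with rIL-12 (78.5 ± 22.01). Cd8b1 had 2004, 991 and 1774 without leukemia (1590 ± 531, SD, n = 3), 672, 241 and 149 with vehicle (354 ± 279) and 210, 126 and 211 with rIL-12 (182 ± 48.8). For both chains every mouse with leukemia lay below every mouse without it. Vehicle treated mouse 1 held the highest level among the mice with leukemia for both, 262 for Cd8a and 672 for Cd8b1, and the other 2 vehicle treated mice lay within or near the range of the rIL-12 group.

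Both CD8 chains fell in vehicle treated mice with leukemia, at log2 fold changes of −1.68 (standard error 0.39) for Cd8a and −2.15 (0.45) for Cd8b1 (adjusted p = 0.0399 and 0.0249, edgeR's quasi-likelihood test). They were 2 of 6 members past the threshold in this comparison, against 2.68% of all probes in either direction. Both also fell in rIL-12 treated mice relative to mice without leukemia, at log2 fold changes of −2.55 (standard error 0.41) for Cd8a and −3.12 (0.47) for Cd8b1 (adjusted p = 0.000953 and 0.000744, edgeR). The 3 mice without leukemia are shared by both of these comparisons. Relative to vehicle, the log2 fold change with rIL-12 was −0.88 (0.41) for Cd8a and −0.97 (0.44) for Cd8b1, with adjusted p of 0.150 and 0.148 by edgeR, and the groups overlapped. Without vehicle treated mouse 1 these values were −0.10 and −0.11.

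The vehicle calls for the CD8 chains rested on few mice. Leaving out leukemia-free mouse 1 or 3, or vehicle treated mouse 2 or 3, left 0 members past the threshold, and the log2 fold changes with 1 mouse left out ran from −2.45 to −1.37 for Cd8a and from −3.01 to −1.80 for Cd8b1. Scaling by housekeeping genes also left 0 members called (adjusted p = 0.113 for Cd8a and 0.0780 for Cd8b1, edgeR). The Cd8a count was at or below the same mouse's viral count in 2 of 3 vehicle treated and 2 of 3 rIL-12 treated mice. Background may therefore limit the size of its change against mice without leukemia there. By the highest viral count of any mouse, Cd8a was at or below it in 2 vehicle treated and 3 rIL-12 treated mice. Cd8b1 was at or below that highest count in 1 vehicle treated mouse (mouse 3, 91 counts), the mouse with the lowest total count. It was above the same mouse's viral count in every mouse.

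Cd4 did not follow the other members. It had 204, 143 and 105 normalized counts without leukemia (151 ± 50.0, SD, n = 3), 197, 363 and 246 with vehicle (269 ± 85.1) and 83.4, 168 and 197 with rIL-12 (149.5 ± 59.1). The ranges of the rIL-12 treated mice and the mice without leukemia overlapped, with rIL-12 treated mouse 1 the lowest of the 9, and vehicle treated mouse 2 was the highest. The log2 fold change was 0.83 (standard error 0.33, adjusted p = 0.223 by edgeR) for vehicle against no leukemia, −0.015 (0.33, adjusted p = 0.976) for rIL-12 against no leukemia and −0.85 (0.32, adjusted p = 0.0856) for rIL-12 against vehicle. Like Cd3g, Cd4 had all rIL-12 treated mice below all vehicle treated mice, as 15.3% of probes did, but by a margin of less than 1 normalized count (197 in the lowest vehicle treated and 197 in the highest rIL-12 treated mouse). Cd4 was at or below the highest viral count in 1 mouse without leukemia and 1 rIL-12 treated mouse, but above the same mouse's viral count in every mouse. The sign of its rIL-12 against no leukemia value turned, to 0.28 when leukemia-free mouse 1 was left out and to 0.27 without rIL-12 treated mouse 1.

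**Figure D2:**
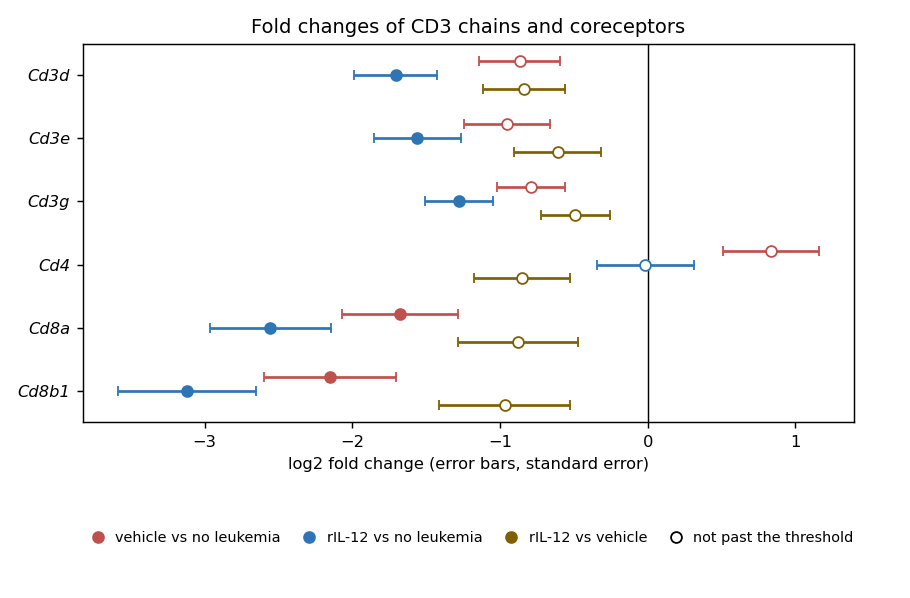
Log2 fold changes (x axis) of the 6 genes (y axis) in the 3 comparisons, with error bars for the standard error of edgeR's fit and open circles for values that did not pass the threshold. The CD8 chains lie furthest below 0 in the comparisons with mice without leukemia, and Cd4 lies at 0.83 with vehicle and at −0.015 with rIL-12 in those comparisons.

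Ratios of raw counts within 1 mouse do not depend on the scaling between mice. Because probes differ in efficiency, a ratio of 1 does not mean equal numbers of molecules, and only differences of a ratio between groups are read. The Cd8a to Cd4 ratio was 2.84, 2.38 and 4.48 in the mice without leukemia (geometric mean 3.11), 1.33, 0.270 and 0.273 with vehicle (0.461) and 0.755, 0.410 and 0.526 with rIL-12 (0.546). The Cd8b1 to Cd4 ratio was 9.80, 6.92 and 16.8 without leukemia (geometric mean 10.5), 3.40, 0.663 and 0.607 with vehicle (1.11) and 2.52, 0.750 and 1.07 with rIL-12 (1.26). Each mouse with leukemia had a lower CD8 to Cd4 ratio than each mouse without it, by either CD8 chain. Background may limit the size of these ratios. The Cd8a count was at or below the same mouse's viral count in 2 of 3 mice of each leukemia group. Cd4 was below the highest viral count in leukemia-free mouse 3 (111 counts), which had the highest ratios, and in rIL-12 treated mouse 1 (98 counts). The log2 difference from mice without leukemia was −2.76 with vehicle and −2.51 with rIL-12 for Cd8a to Cd4, and −3.24 and −3.05 for Cd8b1 to Cd4 (exact two-sided permutation test, p = 0.1 for each).

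Across the 3 groups, an exact permutation test gave p = 0.0286 for both ratios of CD8 chains to Cd4 and p = 0.025 for Cd4 to Cd3e. Adjusted over the 8 ratios computed, p was 0.0762 for each of these 3 (exact permutation test), so 0 of 8 ratios passed after adjustment and 3 passed before it. Without vehicle treated mouse 1, the one with the highest CD8 levels of its group, 4 ratios passed, Cd8a to Cd4, Cd8b1 to Cd4 and Cd4 to Cd3e (adjusted exact p = 0.0286 each) and Cd8a to Cd3e (adjusted exact p = 0.0357). These were the lowest values with 1 mouse left out. Leaving out other mice, the adjusted p of the exact permutation test reached 0.248 for the first 3 ratios and 0.297 for Cd8a to Cd3e. Between rIL-12 and vehicle, the ratios of the CD8 chains to Cd4 differed by 0.24 for Cd8a and 0.19 for Cd8b1 on the log2 scale, and the groups overlapped (exact two-sided permutation test, p = 0.8 for both). With vehicle treated mouse 1 left out, these differences were 1.01 and 0.99, rIL-12 higher, and the groups no longer overlapped, so the value between the groups with leukemia rests on that mouse.

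Relative to Cd3e, Cd4 was higher and the CD8 chains were lower in each mouse with leukemia than in each mouse without it. The Cd4 to Cd3e ratio was 0.240, 0.314 and 0.157 without leukemia (geometric mean 0.228), 0.464, 1.25 and 0.806 with vehicle (0.775) and 0.583, 0.812 and 0.612 with rIL-12 (0.662). The ratio of Cd8a to Cd3e was 0.681, 0.745 and 0.701 without leukemia (0.708), 0.615, 0.336 and 0.220 with vehicle (0.357) and 0.440, 0.333 and 0.322 with rIL-12 (0.362). That of Cd8b1 to Cd3e went from 2.35, 2.17 and 2.63 (2.38) without leukemia to 1.58, 0.826 and 0.489 (0.861) with vehicle and 1.47, 0.609 and 0.653 (0.836) with rIL-12. For these 3 ratios neither leukemia group overlapped the mice without leukemia (exact two-sided permutation p = 0.1 each), but over all 3 groups the adjusted exact p was 0.149 for both CD8 chains. The background limits given above for Cd8a and Cd4 apply to these ratios as well. The mice without leukemia had nearly the same Cd8a to Cd3e ratio, although their Cd8a levels ranged from 340 to 580 normalized counts.

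Within the CD3 complex the balance of chains differed little between groups. The geometric mean of the Cd3d to Cd3e ratio was 2.23 in leukemia-free, 2.31 in vehicle treated and 2.04 in rIL-12 treated mice, and that of Cd3g to Cd3e was 1.57, 1.78 and 1.98 (exact permutation test over 3 groups, p = 0.639 and 0.375, adjusted p = 0.639 and 0.429). The ratio of Cd8b1 to Cd8a was 3.46, 2.92 and 3.76 without leukemia (geometric mean 3.36), 2.56, 2.45 and 2.22 with vehicle (2.41) and 3.34, 1.83 and 2.03 with rIL-12 (2.31), with exact p = 0.143 over the 3 groups (adjusted p = 0.190). The 3 vehicle treated mice lay below the 3 without leukemia, but the rIL-12 group overlapped both. With Cd8a at or below the same mouse's viral count in 2 of 3 mice of each leukemia group, its true ratio to Cd8b1 there is less certain than in mice without leukemia.

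**Figure D3:**
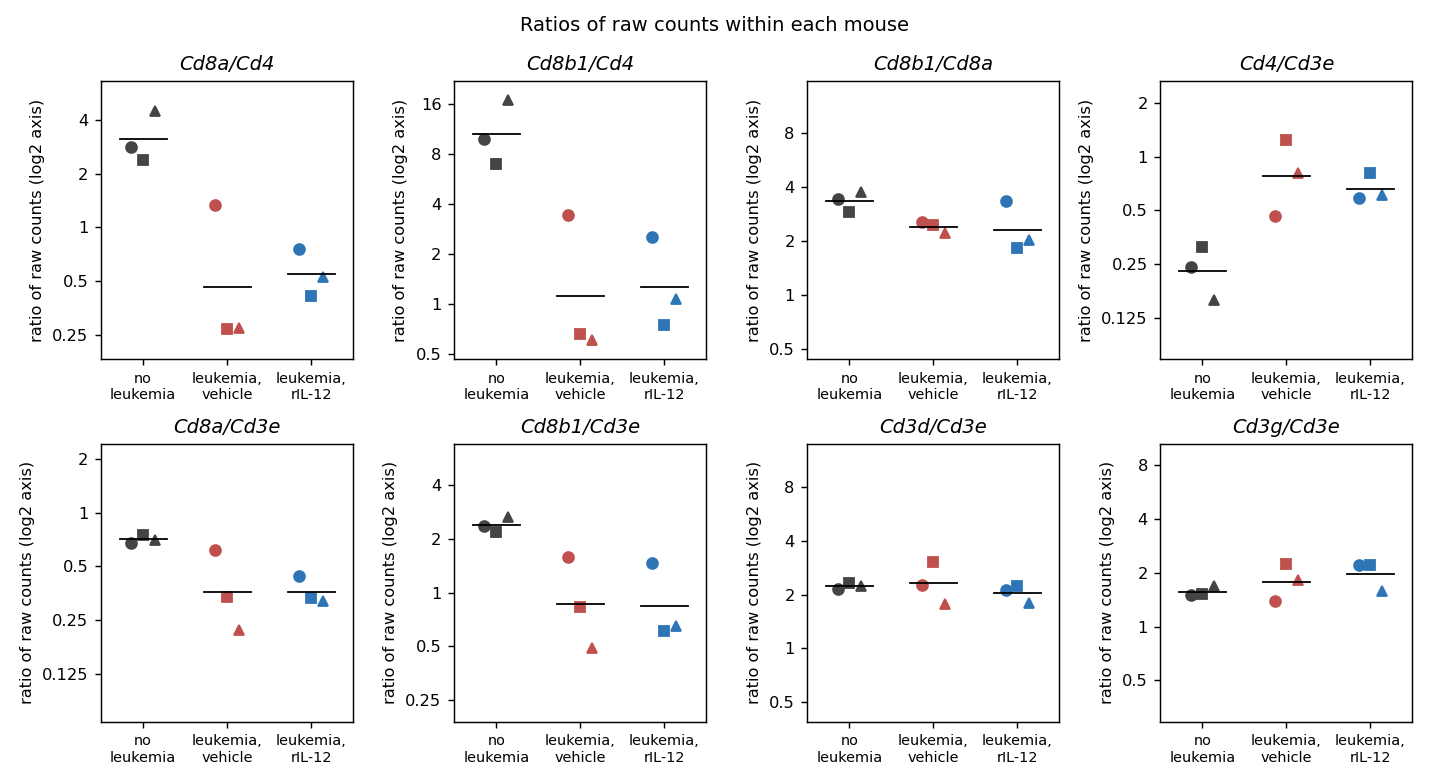
The 8 ratios of raw counts within each mouse (y axis, log2 scale of equal span in each panel), by group (x axis), with circles, squares and triangles for mice 1, 2 and 3 and a black line for the geometric mean. Ratios of the CD8 chains to Cd4 lie at 2.38 or more without leukemia and at 3.40 or less with it, without overlap within either ratio, whereas the ratios between CD3 chains overlap.

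Over the 9 mice, the log2 levels of the 3 CD3 chains followed each other, with Pearson's r of 0.96 for each pair (0.83 to 0.85 after removing group means), and Cd8a followed Cd8b1 with r = 0.98 (0.92 after removing group means). Cd4 had r of 0.14 to 0.21 with the CD3 chains, −0.13 with Cd8a and −0.23 with Cd8b1. After removing group means, Cd4 had r of 0.45 to 0.59 with the CD3 chains. These values are descriptions over 9 libraries that share 3 conditions and 1 scaling. The genes most like a member in level were Lck, Il21r and Ctsw for Cd3d (r = 0.99, 0.99 and 0.98), Clcf1, Ctsw and Il21r for Cd3e (0.97, 0.97 and 0.96) and Cd5, Lck and Il21r for Cd3g (0.96, 0.96 and 0.95). Lck encodes the kinase that phosphorylates CD3 and Il21r the receptor of interleukin 21. For Cd8a they were Klf2, Ccr7 and Lef1 (r = 0.99, 0.98 and 0.98) and for Cd8b1 Ccr7, Klf2 and Klrd1 (0.99, 0.99 and 0.98). Klf2 and Lef1 encode transcription factors and Ccr7 a lymph node homing receptor, all known from naive T-cells, while Klrd1 encodes CD94 of NK cells and CD8 T-cells. For Cd4 the nearest were Pmepa1, Jak3 and Cd86 (r = 0.94, 0.86 and 0.84), with Pmepa1 at a mean of 49.7 normalized counts, below the viral probe. Lag3, the neighbour of Cd4 and a CD4-related inhibitory receptor, had r = 0.78 with it.

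Genes that act just below the receptor were lower in rIL-12 treated mice as well. The list of receptor chains and proximal signalling had 18 measured genes, none of them a receptor chain. Of these 18, 2 fell in vehicle treated mice relative to mice without leukemia (1.4% of all probes did), 10 fell with rIL-12 relative to mice without leukemia (8.66% of all probes) and 7 fell with rIL-12 relative to vehicle (5.22% of all probes), and 0 rose in any of these, beside 1.27%, 8.92% and 8.54% of all probes that did. The list's median log2 fold change was −0.28, −0.81 and −0.48 in these comparisons, beside 0.049, 0.024 and −0.084 over all probes. With vehicle, the genes that fell were Rasgrp1, a Ras activator (log2 fold change −1.59, standard error 0.32, adjusted p = 0.0241 by edgeR), and Dgka, a kinase that removes diacylglycerol (−1.30, 0.29, adjusted p = 0.0310). With rIL-12 relative to no leukemia, those that fell included Dgka (−2.33), Rasgrp1 (−2.17), Grap2, an adaptor of the LAT complex (−2.15), and Lck (−1.60).

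Lck went from 1761, 1075 and 1407 normalized counts without leukemia through 979, 903 and 647 with vehicle to 349, 483 and 564 with rIL-12, without overlap of any of the 3 groups. Between rIL-12 and vehicle Lck fell by 0.86 on the log2 scale (standard error 0.23, adjusted p = 0.0276 by edgeR), and Cd3d, to which Lck was the most alike, had −0.84 (0.28, adjusted p = 0.0565). Zap70, the kinase that binds phosphorylated CD3 chains, had 688, 530 and 487 normalized counts without leukemia, 529, 741 and 480 with vehicle and 122, 197 and 450 with rIL-12. It fell with rIL-12 relative to vehicle (log2 fold change −1.19, standard error 0.36, adjusted p = 0.0459 by edgeR), as did Grap2 (−1.13) and Dgka (−1.03).

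Of 10 other T-lineage surface genes, 1 fell with vehicle (Cd226), 7 fell with rIL-12 relative to no leukemia (Cd5, Cd6, Cd28, Cd96, Il7r, Cd226 and Slamf6) and 2 fell with rIL-12 relative to vehicle (Cd96 and Il7r), beside 1.4%, 8.66% and 5.22% of all probes, with medians of −0.46, −0.97 and −0.49 log2. Of 12 genes associated with CD4 T-cells, 0 passed with vehicle (2.68% of all probes did). With rIL-12 relative to no leukemia 1 fell (Foxp3, of regulatory T-cells) and 1 rose (Il21), beside 8.66% and 8.92% of all probes. Foxp3 also fell with rIL-12 relative to vehicle (5.22% of all probes). Of 17 genes associated with CD8 T-cells, 0 passed with vehicle (2.68% of all probes did). With rIL-12 relative to no leukemia, 5 of these 17 fell (Eomes, Prf1, Crtam, Itgae and Klrd1) and 2 rose (Klrk1 and Ifng), beside 8.66% and 8.92% of all probes. The list's median was −0.0040. Relative to vehicle, Gzmb fell and Klrk1 rose (5.22% and 8.54% of all probes).

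Markers of other cells were measured in the same isolates. The 3 CD3 chains summed to 2217 to 3966 normalized counts without leukemia, 1409 to 1982 with vehicle and 762 to 1414 with rIL-12. Over the same mice, 10 myeloid markers summed to 5017 to 5554, 5613 to 6803 and 5497 to 7895. With vehicle 0 of the 10 were past the threshold (2.68% of all probes were), and 0 had a negative log2 fold change (list median 0.25), against 42.2% of all probes. With rIL-12 relative to no leukemia 2 rose (Cd68 and Fcgr1), beside 8.92% of all probes. Csf1r, which marks monocytes and macrophages, was counted 868 to 2043 times in every mouse with leukemia and 1274 to 1417 times without. These are raw counts, which also depend on the total count of each mouse. Transcripts of myeloid cells were thus present in all the isolates. The log2 fold change of Csf1r was 0.27 for vehicle against no leukemia, 0.068 for rIL-12 against no leukemia and −0.20 for rIL-12 against vehicle. None of these passed the threshold.

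Of 4 mast cell and basophil markers, Ms4a2 and Cpa3 rose in both leukemia groups relative to mice without leukemia, beside 1.27% (vehicle) and 8.92% (rIL-12) of all probes. The 4 summed to 971 to 1113 normalized counts without leukemia, 1789 to 2117 with vehicle and 1850 to 2112 with rIL-12. The 9 B-cell markers, which B-lineage leukemia cells can also express, summed to 1566 to 1742, 1864 to 2143 and 1828 to 2085. Of 5 NK markers, 0 passed in any comparison (edgeR), beside 2.68%, 17.6% and 13.8% of all probes. With vehicle 0 of these markers had a negative log2 fold change (list median 0.25), against 42.2% of all probes. Their sums of 5707 to 6993, 6231 to 9222 and 6559 to 8932 were mostly Tyrobp, which myeloid cells also express (means of 5955, 7526 and 7127). Ncr1, the defining NK marker, was counted 22 to 46 times in every mouse, below the viral probe. No probe was at 0 in any mouse. The share of T-cells in each isolate is not known from these counts, and the part of other cells in the lower CD3 and CD8 levels was not tested. The ratios within a mouse, of CD8 chains to Cd4 and to Cd3e, do not use the level of any other gene. They can still include transcripts of other cells, since CD4 and the CD8 α chain are also found on some dendritic cells. The part of such cells in these ratios was not tested, and the background limits given for Cd8a and Cd4 apply here too.

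**Figure D4:**
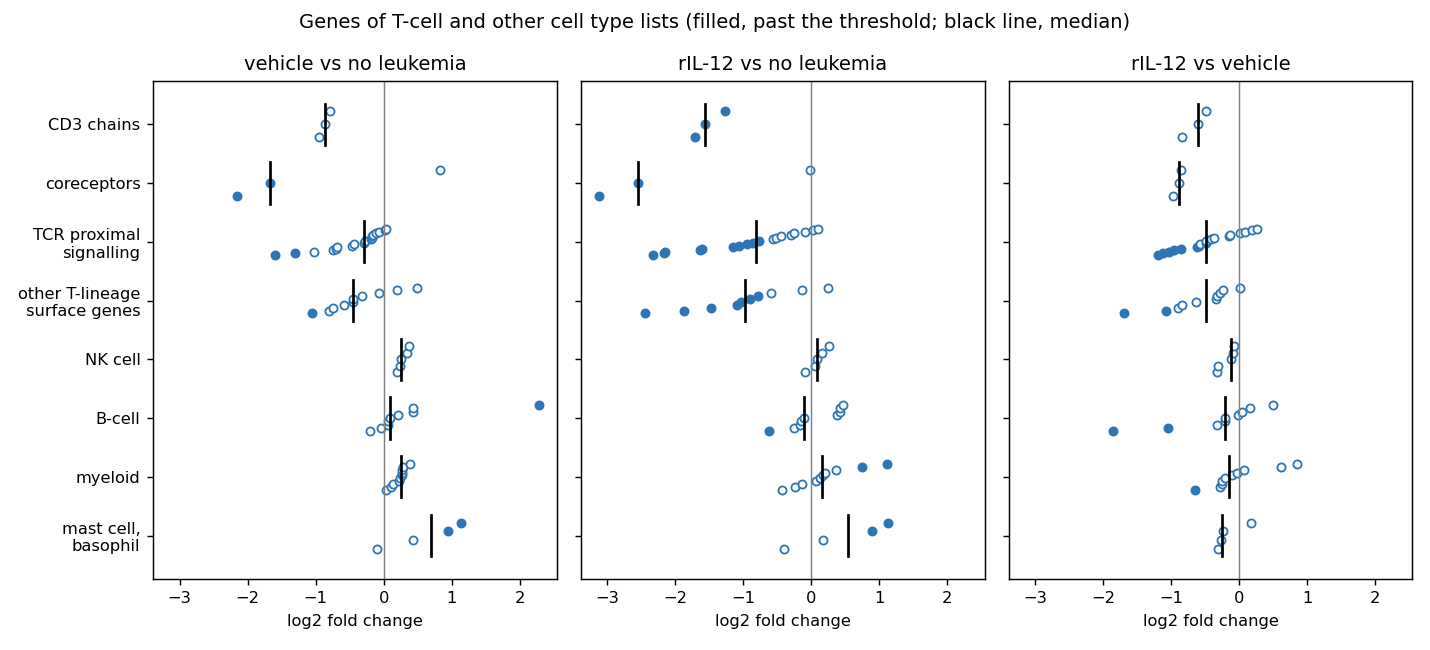
Log2 fold changes (x axis) of the genes of 8 lists (y axis) in the 3 comparisons, with filled circles for genes past the threshold, open circles for the others and a black line at the list median. The CD3 chains, proximal signalling genes and other T-lineage genes lie mostly below 0 with rIL-12 relative to no leukemia (medians −1.56, −0.81 and −0.97). In that comparison the NK, B-cell and myeloid medians lie between −0.11 and 0.15 and the mast cell and basophil median lies at 0.53.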

How the data were processed

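RNA from bone marrow T-cells of 9 mice was measured with the nCounter panel. For each mouse, the authors deposited raw barcode counts (whole numbers) per probe, before the nSolver normalization that their methods name. All 9 columns were used. Probes were named through RefSeq transcripts (751 of 785, 34 without a symbol). The table of RefSeq promoters held windows of Cd3d, Cd3e, Cd3g, Cd8a and Cd247.

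After TMM scaling, the quasi-likelihood model of edgeR 4.0.16 (R 4.3.3) was fitted to 3 groups without a block, and fold changes used a prior count of 1. Normalized counts are counts divided by the effective library size and multiplied by the geometric mean of these sizes. On simulated data, 99.5%, 100% and 100% of 200 genes changed by 2 on the log2 scale were recovered, with 8, 10 and 8 unchanged genes called. Within-mouse ratios were tested over all 1680 assignments of mice to groups (smallest p 0.00357), with 8 of 9 planned ratios computed, as Cd247 had no matched probe.

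The members, lists and tests were chosen with earlier results of these data known. Named genes were the members, the 3 genes most correlated with each, up to 5 called proximal signalling genes with the largest change per comparison, and defining markers. Those without a matched probe were Cd79a, Itgam and Klrb1c. Lag3 was added as the neighbour of Cd4. Some genes that this rule names are not reported here. Ratios of chi-square to degrees of freedom between mice of a group were 5.54 to 60.0, so no pair of mice agreed within counting noise. Alternatives covered scaling, prior counts (0.1 and 10), a filter at a mean count of 20 and models of 2 groups. They also covered DESeq2 1.42.0, the methods' t-test, fold thresholds, a replicate block and leaving out each mouse. The methods name a t-test for 2 groups and ANOVA with Tukey's test for 3 or more. The t-test here was run on log2 TMM-scaled counts, so it does not repeat the study's nSolver procedure.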

Additional observations from a re-analysis of the deposited data

How the results depend on the processing

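Of the 6 members, 2 passed the threshold in vehicle against no leukemia, 5 in rIL-12 against no leukemia and 0 in rIL-12 against vehicle. Members called with vehicle against no leukemia were 0 with housekeeping scaling, 6 in a model of only the 2 groups compared, 5 with DESeq2, 0 with the methods' t-test and adjusted p (3 at unadjusted p), and 0 to 4 with each mouse left out (0 when leukemia-free mouse 1 or 3 or vehicle treated mouse 2 or 3 was left out, 4 without rIL-12 treated mouse 3). With rIL-12 against no leukemia they were 0 with the methods' t-test and adjusted p (5 at unadjusted p) and 5 with each mouse left out. With rIL-12 against vehicle they were 6 with housekeeping scaling, 2 with total count scaling (Cd3d and Cd4), 1 with DESeq2 and 0 to 3 with each mouse left out (3 without rIL-12 treated mouse 3). Ratios that passed were 0 to 4 with each mouse left out (4 without vehicle treated mouse 1) and 0 with 20 counts added, with the Kruskal-Wallis statistic and with the replicate block. The log2 fold change of Cd4 with rIL-12 against no leukemia ran from −0.26 to 0.28 with each mouse left out, and reversed to 0.28 when leukemia-free mouse 1 was left out and to 0.27 when rIL-12 treated mouse 1 was. The cause was not tested.

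Over all probes, calls were 21, 138 and 108 in the 3 comparisons, 3, 121 and 289 with housekeeping scaling, 63, 114 and 27 in a model of 2 groups, 50, 150 and 136 with DESeq2, 18, 72 and 49 at 2-fold, 0, 0 and 0 with the methods' t-test and adjusted p (56, 109 and 76 unadjusted), and 0 to 42, 66 to 194 and 0 to 199 with each mouse left out. With housekeeping scaling the probes as a whole had median log2 fold changes of 0.18, −0.32 and −0.56. Same-numbered mice had correlations of deviations from −0.19 to 0.33, over 0.1 in 5 of 9 pairs, and 8 of 18 comparisons put the own number first. With 3 mice per group these values cannot show whether the numbers pair the mice. The replicate block left 2, 5 and 0 members called and 20, 125 and 98 probes. Signal near the viral probe may limit Cd8a in mice with leukemia and Cd4 in 1 mouse without leukemia and 1 rIL-12 treated mouse.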

Other observations

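The panel also held 14 probes whose identifiers begin with Tcr and which the files do not pair with a gene name. They were chosen for description after their values were seen. With vehicle relative to no leukemia 1 of the 14 was lower past the threshold, with rIL-12 relative to no leukemia 6 were, and with rIL-12 relative to vehicle 3 were (edgeR), while 0 were higher in any comparison. Of all probes, 1.4%, 8.66% and 5.22% were lower. The medians of the 14 were −0.40, −0.48 and −0.29 on the log2 scale, beside 0.049, 0.024 and −0.084 over all probes. The probe Tcr_320 had 3235 ± 693 normalized counts (SD, n = 3) in leukemia-free mice, 2006 ± 459 in vehicle treated and 851 ± 499 in rIL-12 treated mice, and none of the groups overlapped. Its log2 fold change was −0.69 (standard error 0.33, adjusted p = 0.345 by edgeR) with vehicle and −1.93 (0.34, adjusted p = 0.00169) with rIL-12 relative to no leukemia, and −1.24 (0.33, adjusted p = 0.0276) with rIL-12 relative to vehicle. The probe Tcr_167 had 224 ± 45.1 normalized counts in leukemia-free mice, 87.6 ± 17.5 in vehicle treated and 53.7 ± 4.91 in rIL-12 treated mice, the last below the lowest level of the viral probe, 55.3, and was lower past the threshold in all 3 comparisons.

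Of 8 dendritic cell markers, Ccr7 fell with vehicle relative to no leukemia (1.4% of all probes fell). Ccr7 is also known from naive T-cells and was among the genes most like Cd8a and Cd8b1, so its fall cannot be assigned to dendritic cells. Ccr7 and Siglech fell and Cd80 and Bst2 rose with rIL-12 relative to no leukemia (8.66% and 8.92% of all probes). Itgax fell and Bst2 rose with rIL-12 relative to vehicle (5.22% and 8.54% of all probes). Of 7 housekeeping genes, 0 passed with vehicle (2.68% of all probes did). Sdha rose with rIL-12 relative to no leukemia (8.92% of all probes), and Abcf1, Sdha and Tbp rose with rIL-12 relative to vehicle (8.54% of all probes). The medians of the 7 were −0.22, 0.39 and 0.56 log2 under TMM, which housekeeping scaling by its construction moves toward 0.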
